A study of Mus musculus with 6 samples.

Results

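The BTB adaptor genes of CUL3 ubiquitin ligases were examined in the left ventricle (LV) of mice with a mutation in *Lztr1*, itself a gene for such an adaptor. The genes were picked out by their names: the numbered members of the *Klhl*, *Kbtbd*, *Btbd*, and *Kctd* families, with *Keap1*, *Spop*, and *Spopl*, wherever the authors' table of their comparison lists them. This gave 70 of the 56923 genes in the deposited counts, namely 32 *Klhl*, 17 *Kctd*, 10 *Btbd*, and 8 *Kbtbd* genes and the 3 genes named singly. The authors' table holds 12629 genes, so adaptors with few reads are not among the 70. Outside it, 43 protein-coding genes of the annotation have a matching name. Of these, 29 were *Btbd35f* genes with 0 counts in every mouse, and none of the other 14, which include *Kbtbd6*, *Klhl29*, and *Kctd8*, exceeded 78 counts in any mouse. The lowest count of any of the 70 genes in a mouse was 82, and all 70 passed the filter on low counts that left 17212 genes to test.

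mRNA-Seq was performed on the PBS-perfused LVs of 3 WT mice and 3 *Lztr1* R409C/+ mice at an age of 12 weeks. Each mouse gave 1 library. WT mice carried no edited allele, and the mutants were heterozygous in every cell for a single-base knock-in made with CRISPR/Cas9. Both came from lines backcrossed to C57BL/6J, the study worked with male mice, and no batch is given. Each mouse is 1 replicate, and how many founders the R409C line traces to is not given in the sources used here. A substitution of 1 base is not seen by a count of reads per gene, so the counts of *Lztr1* cannot check the genotype labels and are given as a description. *Lztr1* stood at 24.2, 24.2, and 22.2 CPM (the count scaled to a common library total after TMM normalization) in WT mice and at 23.9, 27.9, and 25.3 CPM in the mutants. These ranges overlapped, with a log2 fold change of 0.13 and an adjusted p of 0.854 (quasi-likelihood test of edgeR, Benjamini-Hochberg adjusted over all genes tested).

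A CUL3 ligase is built on the scaffold protein CUL3, which carries the RING protein RBX1 at one end and a BTB protein at the other. The BTB protein is adaptor and substrate receptor in one: its BTB domain holds CUL3, and a second domain, often a kelch repeat or the MATH domain of SPOP, holds the protein that is to be ubiquitinated. Which proteins a cell can send to CUL3 thus depends on which adaptors it makes. In striated muscle, several kelch adaptors have specialised roles, and mutations in *KLHL40*, *KLHL41*, and *KBTBD13* cause nemaline myopathy, while mutations in *KLHL24* cause skin fragility with cardiomyopathy. LZTR1 is a kelch-BTB adaptor for RAS-family GTPases. Not every KCTD or BTBD protein is known to bind CUL3.

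Total counts were between 66130887 and 72641124 per mouse, and 3 counts corresponded to between 0.0317 and 0.0541 CPM, which allows for counting error alone. The share of counts from the mitochondrial genome was 13.8% in WT replicate 3 and 45.4% in mutant replicate 1, against 29.7% to 37.3% in the other 4 mice. All 5 cardiomyocyte markers listed were present, with a summed level of 32722 to 36406 CPM in WT mice and 23366 to 33661 CPM in the mutants, and the 3 atrial markers summed to at most 0.814 CPM in any mouse. All 5 macrophage markers (*C1qa*, *C1qb*, *Csf1r*, *Cd68*, and *Adgre1*) were higher in each mutant than in each WT mouse, with sums of 78.0 to 82.7 and 141 to 160 CPM. Of these, *C1qb* passed the adjusted threshold (adjusted p = 0.0241, edgeR). All 3 smooth muscle markers were lower in mean in the mutants, and *Myh11* and *Tagln* were lower in every mutant (log2 fold changes, -0.71 and -0.65), with sums of 74.0 to 78.8 CPM in WT mice and 46.3 to 79.9 CPM in mutants, most of it *Acta2*. Erythroid markers were higher in mean (3 of 3; sums of 346 to 869 and 613 to 1578 CPM), as were B cell markers (4 of 4; sums of 0.718 to 1.54 and 1.76 to 3.10 CPM). Fibroblast and endothelial markers were mixed (3 of 5 higher in mean in each list), with the fibroblast gene *Lum* and the endothelial gene *Emcn* higher in every mutant (log2 fold changes, 0.61 and 0.40). Whole ventricle was sequenced, so fewer cells of a type and less RNA per cell cannot be told apart, and the part of these markers in the values of the adaptor genes was not tested.

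Per kb of exon, a scale on which genes can be compared with each other, the adaptor genes spanned a 90.4-fold range of mean level, from 28.0 CPM per kb for *Spop* to 0.310 CPM per kb for *Btbd11*, now also named *Abtb3*. The length used is that of all annotated exons of a gene merged, not of the transcripts made in the LV, so the order of genes depends on it. The median gene stood at 1.56 CPM per kb. Only 10 genes were at 10 CPM per kb or more, 43 were between 1 and 10, and 17 were below 1. In the order of their levels, the first 10 were *Spop*, *Klhl24* (26.0 CPM per kb), *Klhl21* (21.4), *Btbd1* (20.9), *Klhl41* (20.5), *Klhl9* (18.5), *Klhl30* (13.9), *Kctd9* (13.6), *Klhl31* (12.7), and *Kctd10* (10.4). These 10 genes held 58.0% to 62.8% of the summed level per kb of all 70 in each mouse. In WT mice the values of the first 3 overlapped: *Spop* was at 28.6 ± 4.65 CPM per kb (SD, n = 3), *Klhl24* at 29.3 ± 1.37, and *Klhl21* at 24.2 ± 6.45. In the mutants, *Spop* was at 27.4 ± 3.01, *Klhl24* at 22.6 ± 4.39, and *Klhl21* at 18.6 ± 3.97. There the values of *Spop* and *Klhl21* did not overlap, and *Spop* was the higher of these 2 genes in every mouse. As background, SPOP is a MATH-BTB adaptor whose substrates include transcription cofactors and BET proteins, KLHL9 and KLHL21 are known as mitotic adaptors for Aurora B, and KLHL30, KLHL31, and KLHL41 are known from muscle. These levels are of transcripts, and proteins were not analysed here.

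**Figure D1:**
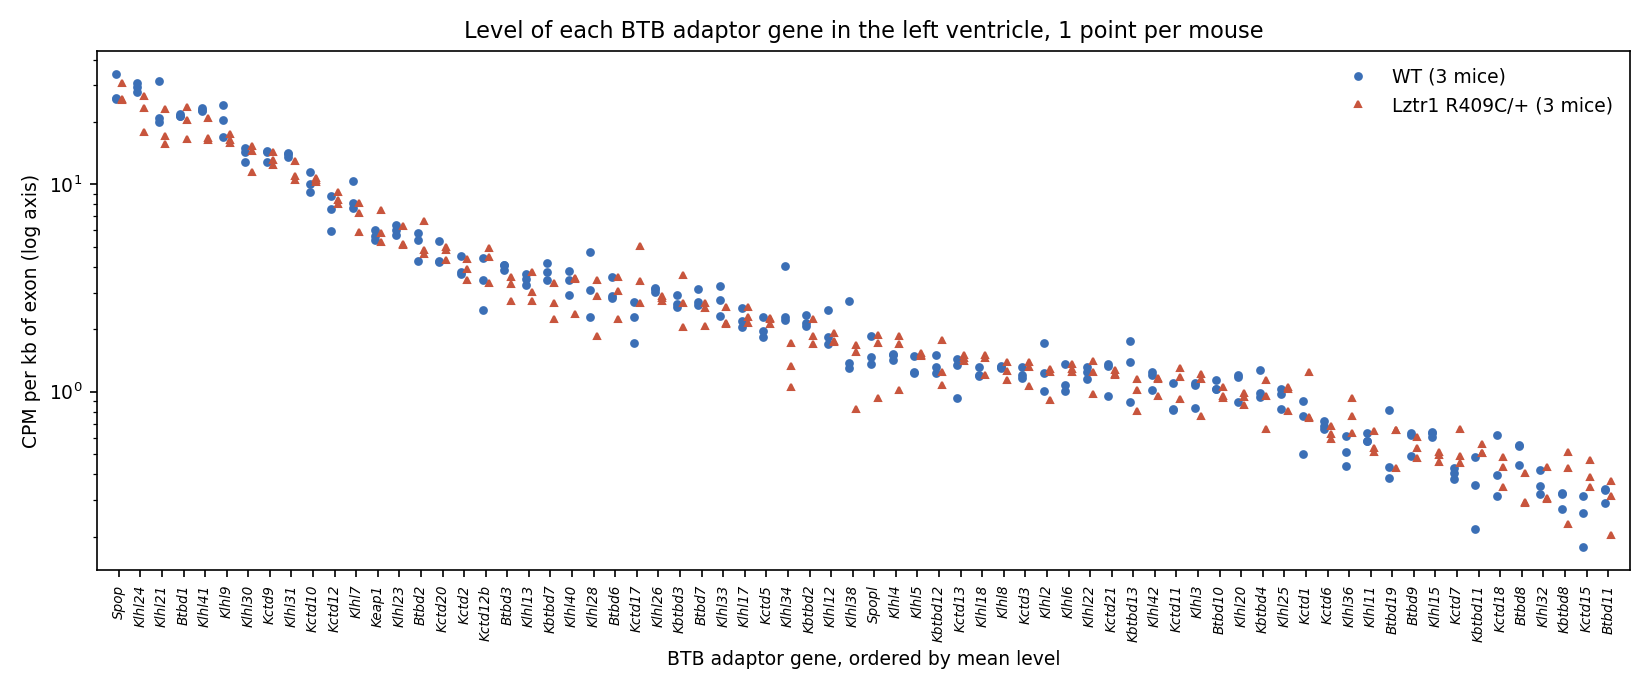
Level of the 70 BTB adaptor genes in the LV, in CPM per kb of exon on a log axis, with 1 point per mouse for 3 WT and 3 *Lztr1* R409C/+ mice, ordered by mean level. *Spop* leads in the mean over both genotypes at 28.0 CPM per kb, although *Klhl24* is above it in the WT mean. Of the genes, 10 lie at 10 or more, and the points of the 2 genotypes overlap for most genes.

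Several adaptors are known from striated muscle and others from most tissues, and the start regions of the genes were compared. RefSeq promoter windows, each of 300 bases with 250 before and 50 after a start of transcription, were matched by symbol for 57 of the 70 genes. For a gene with several windows only the first listed was used, so its other starts were not examined. The windows are from the RefSeq table for GRCm38.p6. Only those printed below were located in GRCm39, the build of the deposited counts, each at 1 place. The median window of an adaptor gene held 22 CG dinucleotides (range, 1 to 54), against 20 for the 11580 windows of genes tested and 7 for all 27020 windows. A window with 10 or fewer CG dinucleotides was found for 11 adaptor genes (19.3%), against 24.7% of the windows of genes tested. These 11 were *Klhl3*, *Klhl4*, *Klhl6*, *Klhl23*, *Klhl31*, *Klhl33*, *Klhl34*, *Klhl40*, *Klhl41*, *Kbtbd13*, and *Btbd19*. Of the 7 adaptors of striated muscle described further on, *Klhl31*, *Klhl40*, *Klhl41*, and *Kbtbd13* are among them, *Kbtbd12* has 32 CG dinucleotides, and *Klhl30* and *Klhl38* were not matched. The pattern CTA, any 4 bases, and then TAG, a loose form of the site of the muscle factor MEF2 that reads the same on both strands, was found in 5 of the 57 windows (8.77%), those of *Klhl33*, *Klhl41*, *Kbtbd12*, *Kbtbd13*, and *Kctd7*, against 3.19% of the windows of genes tested and 3.70% of all windows. TATAAA, searched on both strands, was in 5 adaptor windows, and in 14.2% of all windows. A match is a description of letters, not evidence of a bound site. Printed here are the windows of *Spop*, the highest in mean level per kb over both genotypes, and of 3 low-CG genes with values further on. They run 5′ to 3′ on the plus strand of GRCm39, with each CG in capitals.
Spop, chr11:95304659-95304958, 37 CG: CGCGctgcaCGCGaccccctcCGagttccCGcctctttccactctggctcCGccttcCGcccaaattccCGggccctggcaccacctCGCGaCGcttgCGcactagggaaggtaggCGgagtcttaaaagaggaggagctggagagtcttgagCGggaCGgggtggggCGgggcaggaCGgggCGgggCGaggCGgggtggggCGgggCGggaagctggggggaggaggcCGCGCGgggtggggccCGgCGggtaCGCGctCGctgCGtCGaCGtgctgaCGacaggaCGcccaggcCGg
Klhl41, chr2:69500214-69500513, 6 CG: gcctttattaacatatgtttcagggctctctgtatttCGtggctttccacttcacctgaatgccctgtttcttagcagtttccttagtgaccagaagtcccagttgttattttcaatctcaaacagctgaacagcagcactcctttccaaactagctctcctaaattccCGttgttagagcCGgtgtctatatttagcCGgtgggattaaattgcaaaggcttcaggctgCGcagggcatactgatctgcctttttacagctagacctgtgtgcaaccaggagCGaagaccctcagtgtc
Klhl31, chr9:77543764-77544063, 7 CG: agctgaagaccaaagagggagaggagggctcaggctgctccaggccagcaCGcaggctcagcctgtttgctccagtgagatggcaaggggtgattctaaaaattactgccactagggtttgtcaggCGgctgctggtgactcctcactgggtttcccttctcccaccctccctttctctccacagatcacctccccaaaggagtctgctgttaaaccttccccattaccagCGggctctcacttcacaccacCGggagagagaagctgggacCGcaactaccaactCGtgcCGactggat
Klhl34, chrX:156601181-156601480, 8 CG: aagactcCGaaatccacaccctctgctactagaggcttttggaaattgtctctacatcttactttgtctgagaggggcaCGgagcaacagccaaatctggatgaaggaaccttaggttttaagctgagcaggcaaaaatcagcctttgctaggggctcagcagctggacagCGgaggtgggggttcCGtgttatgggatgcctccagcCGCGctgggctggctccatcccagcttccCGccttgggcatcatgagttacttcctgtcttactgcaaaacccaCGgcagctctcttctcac
The window of *Spop* held 37 CG dinucleotides, against 6 to 8 in the 3 CG-poor windows. The start used for *Spop* lies inside the annotated gene, which begins at 95296831 on chromosome 11. The window of *Klhl41* holds the MEF2-type pattern, and those of *Klhl31* and *Klhl34* do not.

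No adaptor gene passed the adjusted threshold between the genotypes. In the quasi-likelihood test of edgeR, with p-values adjusted by Benjamini-Hochberg over all 17212 genes, 0 of the 70 were called higher and 0 lower, beside 0.0349% and 0.00581% of all genes tested. DESeq2 also called 0, with a smallest adjusted p of 0.0584 for *Klhl34*. At an unadjusted p under 0.05 in edgeR, 1 adaptor gene was higher in the mutants (*Kctd17*) and 4 were lower (*Klhl34*, *Btbd8*, *Kbtbd7*, and *Klhl41*), beside 5.77% of all genes higher and 2.86% lower. As shares, these were 1.43% and 5.71% of the 70. The values of the genotypes did not overlap for 5 genes that were higher in every mutant mouse (7.14%, against 8.30% of all genes) and for 9 that were lower in every mutant mouse (12.9%, against 7.23% of all genes). Of the genes at or above the level of the lowest adaptor, 8.57% were lower without overlap. Of the 70, 42 had a negative log2 fold change, or 60.0%, against 48.6% of all genes tested. The median log2 fold change was -0.068, against 0.012 over all genes. Among genes at or above the level of the lowest adaptor, 52.4% had a negative log2 fold change, the median was -0.014, and 3.46% were lower at an unadjusted p under 0.05 in edgeR.

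The precision of these comparisons was moderate. The median SE of the log2 fold change was 0.19, and the 95% interval lay within a 2-fold change in either direction for 60 of the 70 genes and within a 1.5-fold change for 36. For 25 genes the estimate was within 0.1 of 0 on the log2 scale.

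**Figure D2:**
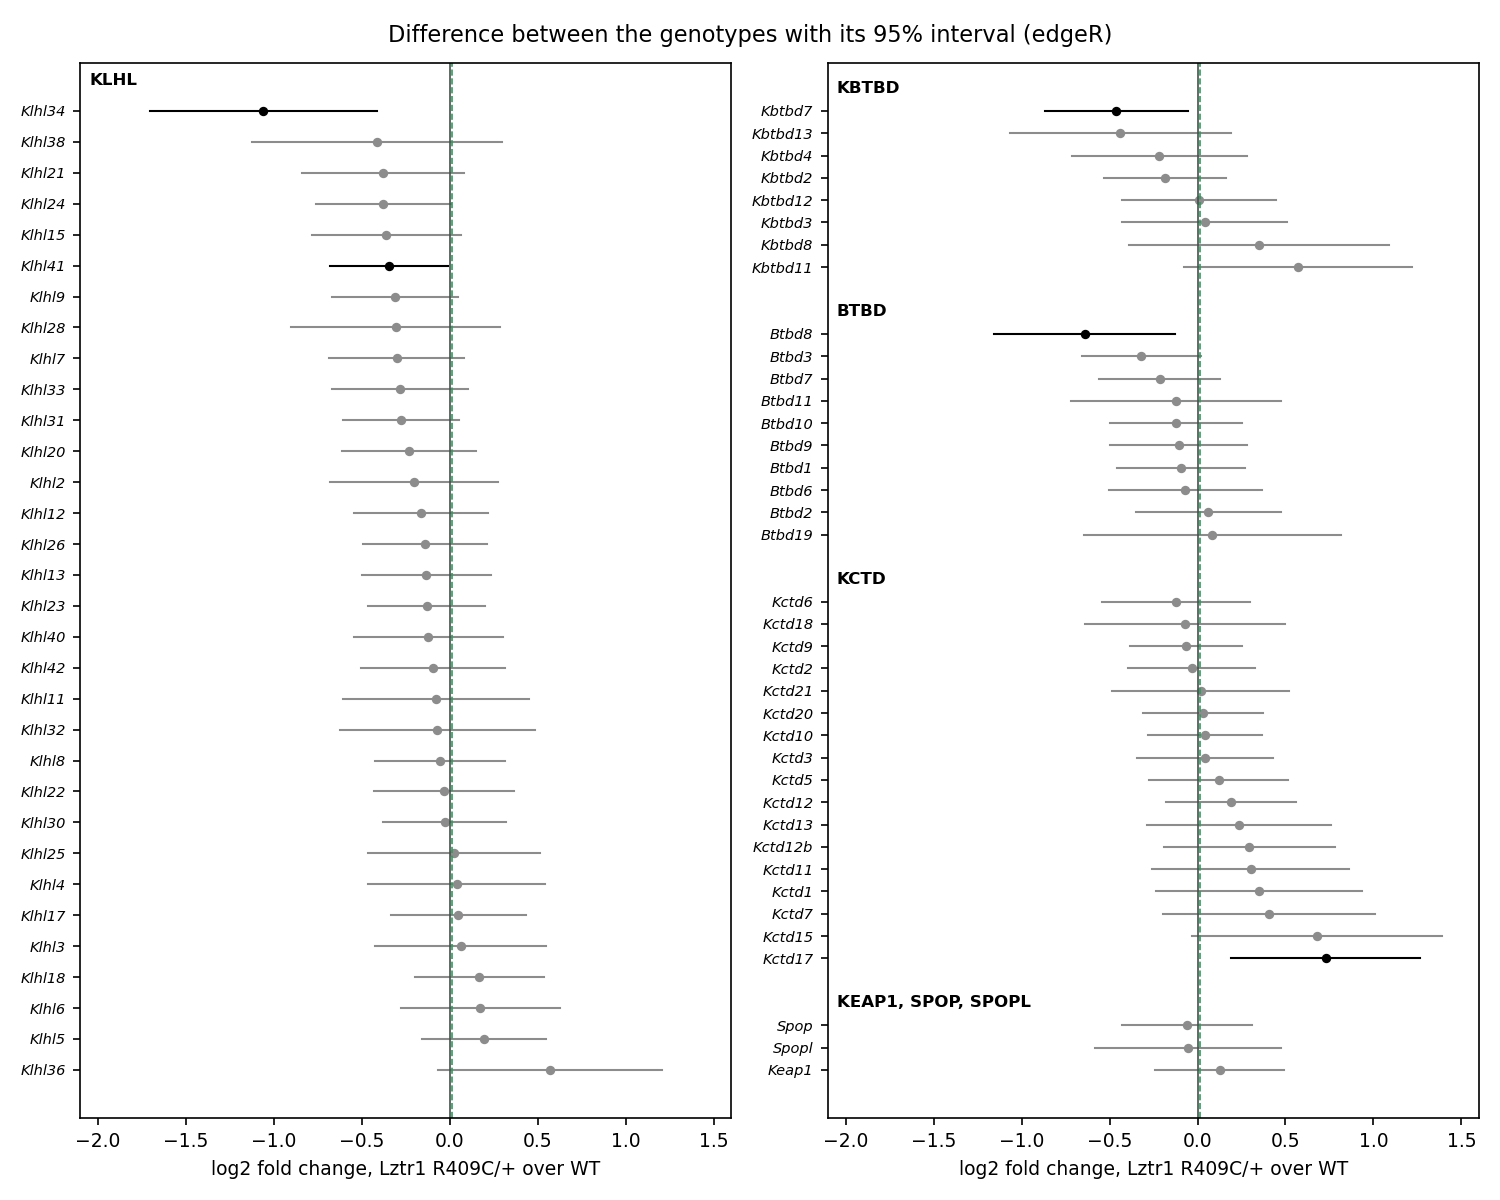
log2 fold change of *Lztr1* R409C/+ over WT mice (points) with its 95% interval from edgeR (lines) for the 70 adaptor genes, by subfamily. Black marks the 5 genes at an unadjusted p under 0.05, the solid line is 0, and the dashed line is the median of all genes tested (0.012). KLHL genes lie mostly left of 0 and KCTD genes mostly right.

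*Klhl34*, a kelch gene on chromosome X (156601431 to 156603365) with 2.11 CPM per kb in the LV, had the widest difference among the 70. Its level was 4.31, 4.43, and 7.79 CPM in WT mice and 2.56, 2.04, and 3.34 CPM in *Lztr1* R409C/+ mice. Every mutant was below every WT mouse, and WT replicate 3 stood above the rest. Its log2 fold change was -1.06 (SE, 0.30), with an adjusted p of 0.307 in edgeR's quasi-likelihood test, and it was -0.72 without WT replicate 3. *Klhl34* lies within *Cnksr2* on the other strand, and whether the counting used strand is not given in the sources used here, so reads from either gene cannot be told apart. *Cnksr2* was at 0.681, 1.09, and 1.64 CPM in WT mice and at 0.578, 0.252, and 0.276 CPM in the mutants.

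The adaptors known from striated muscle were mostly lower in mean in the mutants, and 3 of them (*Klhl30*, *Klhl31*, and *Klhl41*) were among the 10 highest per kb. *Klhl40* was at 3.27 CPM per kb, and *Klhl38*, *Kbtbd12*, and *Kbtbd13* lay near the median adaptor gene, at 1.58, 1.36, and 1.17. Of these 7 genes, 6 had a negative log2 fold change, where 48.6% of all genes did, and 1 was lower at an unadjusted p under 0.05 in edgeR, where 2.86% of all genes were. The median was -0.28. For 3 of the 6, the sign turned when 1 mouse was left out: *Klhl30* was at 0.083 and *Klhl40* at 0.037 without mutant replicate 1, and *Klhl30* at 0.020 and *Klhl38* at 0.023 without WT replicate 1. The cardiomyocyte markers lay on the same side, with 4 of 5 lower in mean, a median log2 fold change of -0.19, and the lowest sum, 23366 CPM, in mutant replicate 1, and their part in the muscle adaptors was not tested. *Klhl41*, whose protein stabilises nebulin in the sarcomere, was at 72.1, 69.6, and 70.9 CPM in WT mice and at 51.9, 64.7, and 50.6 CPM in the mutants. The WT mice lay close together and all 3 mutants were below them. The log2 fold change was -0.35 (SE, 0.15; adjusted p = 0.567, edgeR). *Klhl31*, a kelch gene made in heart and skeletal muscle, was at 102, 96.7, and 100.3 CPM in WT mice and at 75.0, 93.3, and 78.3 CPM in the mutants. Again no mutant reached the lowest WT mouse, and mutant replicate 2 was the nearest to it, as for *Klhl41*. The log2 fold change was -0.28 (SE, 0.15; adjusted p = 0.645, edgeR).

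Other muscle adaptors overlapped between the genotypes. *Klhl40*, whose protein stabilises nebulin and leiomodin-3, was at 18.1, 16.4, and 13.8 CPM in WT mice and at 11.2, 16.6, and 16.5 CPM in the mutants, with only mutant replicate 1 outside the WT range. It overlaps *Hhatl* on the other strand, a gene at 60.7 to 85.4 CPM in these mice. *Klhl30* was at 52.0, 49.9, and 44.7 CPM in WT mice and at 39.8, 50.4, and 53.5 CPM in the mutants, a log2 fold change of -0.027 that is within the spread between mice. *Klhl38* had the largest SE of the muscle adaptors (0.32), with 11.9 to 25.0 CPM in WT mice and 7.51 to 15.4 CPM in the mutants, and a log2 fold change of -0.41. *Kbtbd13* was the least abundant of the muscle adaptors in CPM, with 2.65, 5.20, and 4.15 CPM in WT mice and 3.43, 2.39, and 3.04 CPM in the mutants. Its log2 fold change of -0.44 was -0.66 without WT replicate 1 and -0.21 without WT replicate 2. *Kbtbd12* was at 16.7, 20.3, and 17.8 CPM in WT mice and at 24.1, 16.7, and 14.5 CPM in the mutants, so its mutants lay on both sides of the WT range. Skeletal muscle markers were near the floor, with sums of 0.218 to 1.37 CPM in all 6 mice.

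*Klhl24*, whose protein directs the turnover of intermediate filaments, had the highest CPM of all 70 genes. It was at 369, 336, and 354 CPM in WT mice and at 281, 320, and 215 CPM in *Lztr1* R409C/+ mice. All 3 mutants were below the WT mice, and mutant replicate 3 was lowest. The log2 fold change was -0.38 (95% interval, -0.76 to 0.0066; adjusted p = 0.587, edgeR), and -0.23 without mutant replicate 3. Transcripts of desmin (*Des*), the intermediate filament protein of muscle, ranged from 1021 to 1216 CPM in WT mice and from 896 to 1317 CPM in mutants, with overlap.

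**Figure D3:**
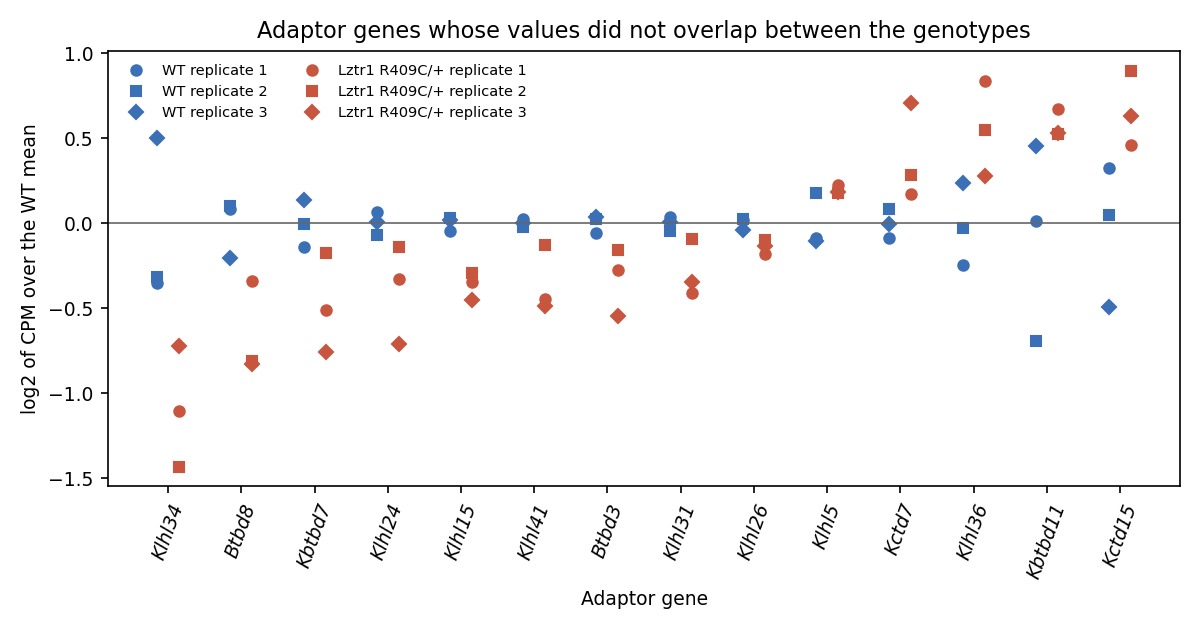
log2 of the CPM in each mouse over the WT mean for the 14 adaptor genes whose values did not overlap between 3 WT and 3 *Lztr1* R409C/+ mice. The 9 genes on the left were lower and the 5 on the right higher in every mutant mouse, and the widest distance is that of *Klhl34*.

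KEAP1 and SPOP, the best-known adaptors, showed no difference beyond the spread between mice. *Keap1*, which holds the antioxidant transcription factor NRF2 for degradation, was at 34.2, 32.2, and 30.6 CPM in WT mice and at 33.1, 30.0, and 42.9 CPM in the mutants. Only mutant replicate 3 was outside the WT range by a wide margin. The log2 fold change was 0.13 (95% interval, -0.24 to 0.49; adjusted p = 0.874, edgeR). Of 26 tested genes in a list of *Nfe2l2* (NRF2) and its targets, 18 were higher in mean and 8 lower, where 48.6% of all genes were lower, with a median log2 fold change of 0.067 beside 0.012 over all genes. None passed the adjusted threshold in edgeR, and 3 were higher (*Hmox1*, *Ftl1*, and *G6pdx*) and 1 lower (*Gclm*) at an unadjusted p under 0.05, beside 5.77% and 2.86% of all genes. In every mutant mouse 5 of the 26 were higher (*Hmox1*, *Ftl1*, *G6pdx*, *Srxn1*, and *Tkt*), beside 8.30% of all genes. Lower in every mutant were 2 (*Gclm* and *Me1*), beside 7.23%. The log2 fold changes of *G6pdx*, *Srxn1*, and *Tkt* were 0.56, 0.35, and 0.26. *Hmox1*, the heme oxygenase that macrophages also make in quantity, was at 2.83, 3.22, and 2.29 CPM in WT mice and at 4.71, 4.85, and 6.97 CPM in the mutants. It was higher in the same mice as the macrophage markers given above, as was the ferritin gene *Ftl1* at 137 to 140 CPM in WT mice and 164 to 256 CPM in mutants. The part of macrophages in both was not tested. *Nqo1*, the target most used to read NRF2 activity, overlapped between the genotypes, with a log2 fold change of 0.23 and WT replicate 3 lowest at 14.1 CPM.

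*Spop* was at 148, 149, and 194 CPM in WT mice and at 177, 148, and 146 CPM in the mutants, a log2 fold change of -0.057 (95% interval, -0.43 to 0.31). *Spopl*, its close homolog, was at 17.4, 16.1, and 22.1 CPM in WT mice and at 22.2, 20.4, and 11.1 CPM in the mutants. The genotypes overlapped for both genes.

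The kelch family leaned to lower values in the mutants. Of 32 *Klhl* genes, 24 (75.0%) had a negative log2 fold change, beside 48.6% of all genes and 52.4% of genes at or above the lowest adaptor, and the median was -0.13. Non-overlapping values that were lower in every mutant mouse were found for 6 of the 32 (*Klhl15*, *Klhl24*, *Klhl26*, *Klhl31*, *Klhl34*, and *Klhl41*), or 18.8%, beside 7.23% of all genes and 8.57% of those at or above the lowest adaptor. *Klhl5* and *Klhl36* were higher in every mutant (6.25%), beside 8.30% of all genes. The KCTD family leaned the other way: 4 of 17 genes (23.5%) had a negative log2 fold change, beside 48.6% of all genes, and 13 a positive one, with a median of 0.12. Of the 17, 2 were higher in every mutant (11.8%, beside 8.30% of all genes) and 0 were lower in every mutant (beside 7.23%). This division by family was noticed after the values were seen and no test of it was made. The median deviation of the *Klhl* genes from their mean over mice was 0.030, 0.056, and 0.11 in WT mice and -0.14, 0.044, and -0.14 in the mutants on the log2 scale, so mutant replicate 2 lay within the WT range. That of the *Kctd* genes was -0.072, 0.0023, and -0.090 in WT mice and 0.029, 0.082, and 0.058 in the mutants, without overlap. With scaling by library size alone, which moves the median of all genes to -0.14, 8 of 17 *Kctd* genes were above 0 and 12 of 17 above that median, and 26 of 32 *Klhl* genes were below it. The *Kctd* median was -0.023 with library size alone, 0.21 without WT replicate 2, and 0.072 with a correction for gene length. The *Klhl* median was -0.28 with library size alone, -0.23 without mutant replicate 2, and -0.057 without WT replicate 3 and mutant replicate 1 together. The median exonic length was 7000 bases for *Klhl* genes, 4889 for *Kctd* genes, and 5487 for all genes tested.

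**Figure D4:**
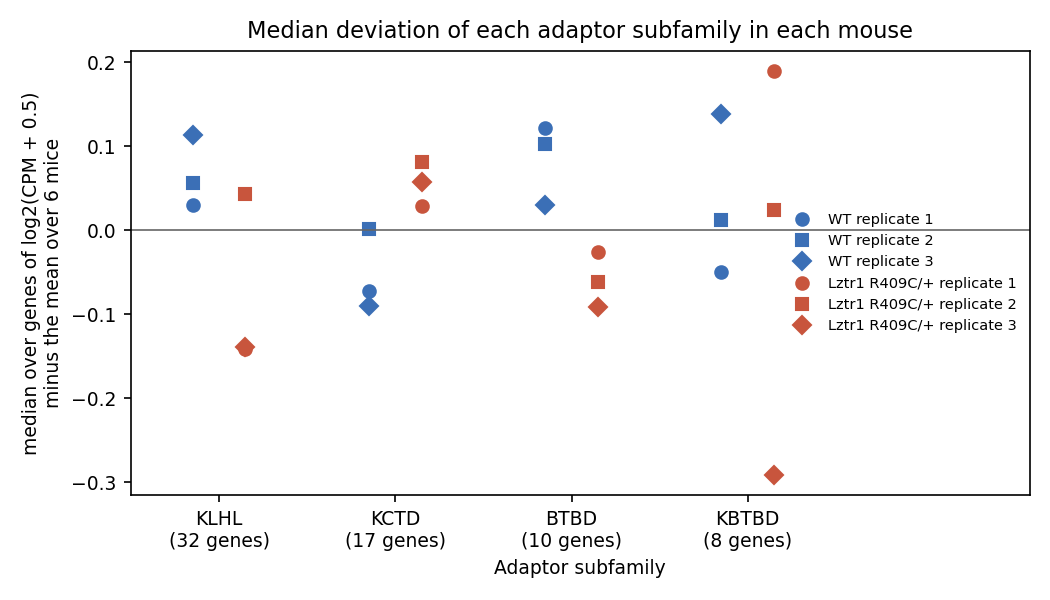
Median deviation, over the genes of each adaptor subfamily, of log2(CPM + 0.5) from its mean over 6 mice, with 1 point per mouse. *Klhl* medians are -0.14 in mutant replicates 1 and 3 but 0.044 in replicate 2, and *Kctd* medians are higher in all 3 mutants than in the WT mice. *Btbd* medians are lower in all 3 mutants than in the WT mice.

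Mutant replicate 3 stood apart in these counts. It had the lowest value of the 6 mice for 27 of the 70 adaptor genes (38.6%), against 19.9% of all genes tested, and for 14 of the 32 *Klhl* genes but 1 of the 17 *Kctd* genes. Summed over the 70 genes, the level was 1989, 1998, and 2153 CPM in WT mice and 1854, 1936, and 1717 CPM in the mutants, without overlap. Without mutant replicate 3 the median log2 fold change of the 70 genes was -0.041, and 45 were negative, beside 42 with all mice. Without WT replicate 3 the median was -0.045, and 38 were negative.

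Of the kelch adaptors for Aurora kinases, *Klhl21* and *Klhl9* were among the 10 highest genes per kb, and *Klhl13* and *Klhl18* stood at 3.33 and 1.31 CPM per kb. *Klhl21* was at 83.7, 79.5, and 126 CPM in WT mice and at 62.3, 68.2, and 92.2 CPM in the mutants, and replicate 3 was the highest of its genotype in both groups. Its log2 fold change was -0.38 (95% interval, -0.84 to 0.084), but -0.14 without WT replicate 3 and -0.025 without WT replicate 3 and mutant replicate 1 together. *Klhl9*, which acts with *Klhl13* and *Klhl21* on Aurora B, was at 70.8, 85.5, and 100.3 CPM in WT mice and at 68.0, 72.9, and 65.7 CPM in the mutants, with overlap through WT replicate 1 alone, and its log2 fold change of -0.31 was -0.18 without WT replicate 3. The transcripts of the kinases, *Aurka* and *Aurkb*, did not exceed 2.08 and 0.929 CPM in any mouse. *Klhl12*, whose protein monoubiquitinates SEC31 of the COPII coat and pairs with LZTR1, was at 21.6, 23.4, and 31.4 CPM in WT mice and at 24.2, 22.2, and 22.0 CPM in the mutants. Its log2 fold change was -0.16 (95% interval, -0.54 to 0.22). *Klhl2* and *Klhl3*, adaptors for the WNK kinases of ion transport, had log2 fold changes of -0.20 and 0.062. *Klhl15*, the adaptor for a regulatory subunit of PP2A, was at 6.02, 6.37, and 6.30 CPM in WT mice and at 4.91, 5.09, and 4.55 CPM in the mutants, with a log2 fold change of -0.36 (adjusted p = 0.640, edgeR). *Klhl26* was also lower in each mutant, at 11.2 to 11.7 CPM in WT mice and 10.2 to 10.8 CPM in mutants, a narrow gap with a log2 fold change of -0.14. *Klhl36* was the furthest of the 32 *Klhl* genes in the other direction, at 1.36, 1.58, and 1.90 CPM in WT mice and at 2.89, 2.36, and 1.96 CPM in the mutants. Its log2 fold change was 0.57 (95% interval, -0.067 to 1.20), and the gap between the nearest mice was small.

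The KBTBD genes divided evenly, with 4 higher and 4 lower in mean. *Kbtbd7*, which pairs with *Kbtbd6* and directs the RAC1 activator TIAM1 to CUL3, was at 15.6, 17.1, and 18.9 CPM in WT mice and at 12.1, 15.2, and 10.1 CPM in *Lztr1* R409C/+ mice. All 3 mutants were below the WT mice. This gave a log2 fold change of -0.46 (SE, 0.19; adjusted p = 0.532, edgeR). It shares its strand and part of its locus with *Mtrf1*, which had a log2 fold change of 0.042. *Kbtbd6* had 20 to 78 counts per mouse and was not among the 70. *Kbtbd11* was at 2.54, 1.55, and 3.45 CPM in WT mice and at 4.01, 3.62, and 3.63 CPM in the mutants, with a log2 fold change of 0.57 (adjusted p = 0.625, edgeR) that was 0.32 without WT replicate 2 and 0.87 without WT replicate 3.

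Of 10 BTBD genes, 8 had a negative log2 fold change, where 48.6% of all genes did, with a median of -0.11, and 2 of the 10 were lower in every mutant, beside 7.23% of all genes. Their median deviation from the mean over mice was 0.12, 0.10, and 0.031 in WT mice on the log2 scale. In the mutants it was -0.025, -0.061, and -0.091, without overlap, and this was not tested. *Btbd8* was at 5.48, 5.53, and 4.48 CPM in WT mice and at 4.08, 2.94, and 2.91 CPM in the mutants, without overlap. Its log2 fold change was -0.64 (SE, 0.24; adjusted p = 0.494, edgeR). *Btbd3*, known for the orientation of dendrites in neurons, was at 30.6, 32.3, and 32.7 CPM in WT mice and at 26.3, 28.5, and 21.8 CPM in the mutants, also without overlap, with a log2 fold change of -0.32 (adjusted p = 0.599, edgeR). *Btbd1*, a partner of topoisomerase I and the most abundant BTBD gene, was at 162, 167, and 163 CPM in WT mice and at 179, 155, and 125 CPM in the mutants. The mutants spread to both sides of a narrow WT range. *Btbd2*, its paralog, was at 21.5 to 29.4 CPM in WT mice and 23.2 to 33.7 CPM in the mutants.

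In the KCTD family, *Kctd17* was the only gene at an unadjusted p under 0.05 in edgeR, 5.88% of the family beside 5.77% of all genes. It was at 10.7, 8.98, and 6.78 CPM in WT mice and at 10.6, 13.4, and 19.8 CPM in the mutants, with mutant replicate 1 just below the highest WT mouse. This was a log2 fold change of 0.73 (SE, 0.25; adjusted p = 0.454, edgeR), and it was 0.45 without mutant replicate 3. KCTD17 binds G protein βγ together with KCTD2 and KCTD5, whose genes had log2 fold changes of -0.034 and 0.12. *Kctd15*, a repressor of the transcription factor AP-2, was at 1.54, 1.27, and 0.876 CPM in WT mice and at 1.70, 2.29, and 1.90 CPM in the mutants, without overlap, with a log2 fold change of 0.68 (95% interval, -0.032 to 1.39; adjusted p = 0.599, edgeR). *Kctd1*, its paralog with the same role, had a log2 fold change of 0.35. *Kctd7*, mutated in progressive myoclonic epilepsy, was at 1.76 to 1.97 CPM in WT mice and 2.09 to 3.04 CPM in the mutants, with a log2 fold change of 0.41. *Kctd12*, an auxiliary subunit of GABA-B receptors, was at 36.1, 53.5, and 46.2 CPM in WT mice and at 48.7, 55.5, and 51.0 CPM in the mutants, with overlap and a log2 fold change of 0.19. *Kctd9*, the most abundant KCTD gene, was at 61.2 to 69.0 CPM in WT mice and 58.6 to 68.0 CPM in mutants. *Kctd10*, an adaptor for RhoA, was at 39.5, 43.3, and 49.6 CPM in WT mice and at 45.6, 46.3, and 44.5 CPM in the mutants, all within the WT range, with a log2 fold change of 0.043. *Kctd13*, its paralog, was at 2.76 to 4.25 CPM in WT mice and 4.15 to 4.48 CPM in the mutants. *Kctd9* and *Kctd10* overlap *Cdca2* and *Myo1h* on the other strand.

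The scaffold itself was measured in the same libraries. *Cul3* was at 162, 153, and 153 CPM in WT mice and at 144, 148, and 109 CPM in *Lztr1* R409C/+ mice. All 3 mutants were below the WT mice, mutant replicate 3 by the most, and the log2 fold change was -0.22 (95% interval, -0.58 to 0.14; adjusted p = 0.751, edgeR). In a list of 25 genes for CUL3, RBX1, NEDD8 conjugation, the COP9 signalosome, and exchange factors, 10 were higher in mean and 15 lower, where 48.6% of all genes were lower. None passed an unadjusted p of 0.05 in edgeR, beside 5.77% of all genes higher and 2.86% lower, and the median log2 fold change was -0.053. *Cul3*, *Cand2*, *Cops8*, and *Arih1* were lower in every mutant mouse, 4 of 25 beside 7.23% of all genes, and 0 were higher in every one, beside 8.30%. *Nedd8*, the ubiquitin-like modifier that activates CUL3, was at 19.9 to 23.7 CPM in WT mice and 23.7 to 30.0 CPM in mutants. In a list of 15 other BTB adaptors that the name rule does not match, *Lztr1* among them, 6 were higher and 9 lower in mean, with 0 at an unadjusted p under 0.05 in edgeR, beside 5.77% of all genes higher and 2.86% lower, and a median of -0.024. Of the 15, *Ipp* alone was lower in every mutant mouse, beside 7.23% of all genes, at 7.04 to 8.43 CPM in WT mice and 5.14 to 6.64 CPM in mutants. In the same list, *Ivns1abp* exceeded every one of the 70 genes in CPM, at 1570, 1547, and 2122 CPM in WT mice and 1830, 1560, and 1096 CPM in the mutants.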

How the data were processed

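RNA from the LVs of 3 WT and 3 *Lztr1* R409C/+ mice was sequenced, 1 library per mouse. The authors trimmed reads with Trim Galore, aligned them to GRCm39 with HISAT2, excluded rRNA, and used StringTie; they deposited whole-number counts per gene without normalization. The annotation release, the way counts were taken from StringTie, and the strandedness of counting are not given in the sources used here. The authors also deposited the log2 fold changes and average log2 CPM of their edgeR comparison, and its p-values and adjusted p-values; these columns were not used, and that table served only to list gene names.

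The counts were fitted with edgeR 4.0.16 (R 4.3.3). filterByExpr left 17212 of 56923 genes, TMM factors were 0.800 to 1.39, and the genotypes were compared by the robust quasi-likelihood test, two-sided, with Benjamini-Hochberg adjustment over all genes tested and a threshold of 0.05. The common biological coefficient of variation was 26.1%. Intervals are 95% intervals of that fit. CPM were divided by the merged length of all exons of a gene in GENCODE vM39 to compare genes. p-values weigh the difference between the genotypes against the spread among the 3 mice of each, which the fit estimates in part from all genes tested. No pair of libraries held identical values. The fit was tested on simulated data. Alternatives were DESeq2 1.42.0, other scalings and filters, removal of mitochondrially encoded genes, a gene length correction, a replicate block, and the omission of each mouse.

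The adaptor genes, the lists, and the role groups were chosen with earlier results of these data known. Genes named were *Keap1*, *Spop*, *Spopl*, any past the adjusted threshold, the 10 with the smallest p, the 10 highest per kb, and 9 known from muscle or as partners of LZTR1. Those added to complete a pair, a short count, or a list were named after their values were seen.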

Additional observations from a re-analysis of the deposited data

How the results depend on the processing

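In each of the 16 alternatives, 0 of the 70 adaptor genes passed an adjusted p of 0.05, by edgeR or DESeq2, and the smallest adjusted p of any was 0.0584. Over all genes, DESeq2 called 136 higher and 14 lower, where edgeR called 6 and 1, and counts with library size alone (15 and 6), without a filter (19 and 1), with the replicate block (0 and 1), and with each mouse left out (1 to 3 and 1 to 2) also differed; the cause was not tested. Adaptor genes higher at an unadjusted p under 0.05 numbered 1; they numbered 0 with library size alone, 2 with upper quartile scaling, and 1 to 2 with each mouse left out (2 without WT replicate 1 or WT replicate 2). Those lower numbered 4, and 2 with library size alone and 1 to 6 with each mouse left out (1 without WT replicate 2, 2 without WT replicate 3, mutant replicate 1, or mutant replicate 3, and 6 without mutant replicate 2). With WT replicate 3 and mutant replicate 1 both left out, an alternative chosen after seeing the data, 2 were higher and 1 lower. The median log2 fold change was -0.23 with library size alone, where that of all genes was -0.14. It was -0.024 with upper quartile scaling, where that of all genes was 0.055, and between -0.093 and -0.041 with each mouse left out.

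Of the 25 adaptor genes named by rule, 15 kept 1 direction in every alternative, and 24 of 400 values reversed. With library size alone these were *Keap1* (-0.0031), *Kctd10* (-0.14), and *Kbtbd12* (-0.18); with the length correction *Spopl* (0.011) and *Kctd10* (-0.019); with upper quartile scaling *Klhl30* (0.014); without a filter *Kbtbd12* (-0.0070); and without both libraries *Klhl30* (0.030) and *Kbtbd12* (-0.25). With each mouse left out, log2 fold changes spanned -0.038 to 0.22 for *Keap1*, -0.16 to 0.082 for *Spop*, -0.25 to 0.20 for *Spopl*, -0.23 to 0.031 for *Btbd1*, -0.11 to 0.083 for *Klhl30*, -0.031 to 0.13 for *Kctd10*, -0.27 to 0.017 for *Klhl12*, -0.60 to 0.023 for *Klhl38*, -0.22 to 0.037 for *Klhl40*, and -0.24 to 0.16 for *Kbtbd12*.

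The replicate numbers are shared by the labels of both genotypes, but correlations of same-numbered mice were -0.0013, 0.022, and -0.057, so the numbers were not taken as pairs. With the replicate block, 1 adaptor gene was higher and 3 lower at an unadjusted p under 0.05, the median was -0.074, and *Kbtbd12* was at -0.020. Adaptor genes with few reads were outside the authors' table, so the 70 genes do not show what this depth misses.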

Other observations

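Transcripts of proteins known as substrates or partners of the adaptors were also measured, with 31 of 32 listed genes tested. In edgeR's quasi-likelihood test 0 passed the adjusted threshold, 2 were higher and 2 lower at an unadjusted p under 0.05, beside 5.77% and 2.86% of all genes, and the median log2 fold change was 0.0085. The values of these 4 are given as a description. *Eif4ebp1*, whose protein is the KLHL25 substrate that restrains translation, was at 18.7, 16.4, and 13.0 CPM in WT mice and at 19.3, 22.1, and 29.2 CPM in *Lztr1* R409C/+ mice, without overlap (log2 fold change, 0.55; adjusted p = 0.475). *Rhoa*, the GTPase that KCTD10 and KCTD13 direct to CUL3, was at 192, 214, and 254 CPM in WT mice and at 163, 186, and 152 CPM in the mutants, also without overlap (log2 fold change, -0.40; adjusted p = 0.546). The others overlapped between the genotypes. *Gli2*, a SPOP substrate, was higher in mean (log2 fold change, 1.03) at a low level. It was at 0.969, 1.27, and 0.369 CPM in WT mice and at 1.19, 1.79, and 2.30 CPM in the mutants. *Topors* was lower in mean (log2 fold change, -0.44), at 11.1, 13.2, and 16.7 CPM in WT mice and 9.11, 11.9, and 9.12 CPM in the mutants. Such transcript levels do not measure the proteins on which the ligases act.

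The sarcomere clients of the muscle adaptors overlapped between the genotypes. *Neb* was at 3.25 to 4.77 CPM in WT mice and 3.85 to 4.72 CPM in mutants, and *Lmod3* at 59.0 to 83.8 and 58.7 to 72.0 CPM. Of 5 RAS-family genes whose proteins LZTR1 binds, 3 were higher and 2 lower in mean, with log2 fold changes from -0.11 for *Rit1* to 0.23 for *Hras* and 0 at an unadjusted p under 0.05 in edgeR, beside 5.77% of all genes higher and 2.86% lower.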
